A study of Mus musculus with 16 samples.

Results

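The genes described here are 8 markers of the nerve cells and glia of the gut wall: Elavl4, Uchl1, Tubb3, Nos1, Vip, Chat, Sox10 and S100b. They were chosen by name, as probes that carry one of these gene names and are not controls of the array. All 8 were found, with 17 probes between them, among the 36711 genes that the arrays measured. The enteric nervous system consists of ganglia embedded between the muscle layers and in the submucosa, whose neurons and glia control motility, secretion and blood flow and continue to mature after birth. Excitatory motor neurons release acetylcholine and tachykinins onto the muscle, whereas inhibitory motor neurons release nitric oxide and vasoactive intestinal peptide. Enteric glia surround both, and retain expression of genes of the neural crest, the embryonic source of neurons and glia.

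The study asked how birth by Caesarean section affects the colon of mice, and measured colon RNA of 16 pups at weaning on Agilent arrays of 1 colour, with 1 array per pup. All pups were RjOrl:SWISS mice, an outbred stock, so that alleles can differ between litters. The Caesarean-delivered (CSD) pups were removed by hysterectomy just before term and raised by foster dams that had given birth vaginally, and the controls were vaginally delivered (VD) pups whose litters had been exchanged between dams. The CSD group held 8 pups (4 females and 4 males) of biological mothers 3 and 4, with 4 pups each, and the VD group held 8 pups (2 females and 6 males), 5 of mother 5 and 3 of mother 6. Each mother's pups all belonged to 1 group, so that 2 litters stood behind each delivery mode, and mother and delivery mode could be told apart only through the spread between litters. Both VD females came from mother 5. CSD here included surgery and birth at a set time before term, and their parts cannot be told apart. Pups of both groups were raised by a dam other than their own. Each of the 2 array slides carried 4 pups of either group.

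The tissue was checked against marker lists. All 12 genes of a colon epithelium list (among them Car1, Aqp8 and Krt20) lay well above background on all 16 arrays, and 4 of 8 small intestine genes (Apoa4, Sis, Lct and Fabp1) lay above background on 0 arrays, whereas Fabp6 and Apoc3 of that list did so on all 16. All 16 genes of a smooth muscle list lay above background on every array, so the samples held the muscle wall in which enteric ganglia lie. In 15 pups the share of probe spots well above background (controls left out) was 61.6% to 64.9%, and in VD pup 11 it was 58.7%, and the results of genes in which this pup stood apart are given with and without it. Each of the 8 genes lay well above background on all 16 arrays with at least 1 probe, but for Nos1 in VD pup 11 the spot in question was left out as an outlier. In RNA of whole colon, fewer neurons or glia and less RNA of a gene per cell cannot be told apart.

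The genes with several probes differed in how much of their signal could be used, and the probes of Chat show this most clearly. Chat encodes choline acetyltransferase, which makes acetylcholine, and 6 probes carried its name on chromosome 14 (mm9). One of them (A_55_P1959430, chr14:33221421-33221480, minus strand, transcript NM_009891) lay well above background on all 16 arrays, while the other 5 did so on 0 to 4 arrays. The final 30 bases of that probe are shown because they hold a simple repeat, whose 5 copies of AAAG are in capitals, beside the whole of a probe to the same transcript (A_55_P2744601, chr14:33260120-33262143, minus strand) that was above background on 0 arrays.
Chat A_55_P1959430: gctattcagAAAGAAAGAAAGAAAGAAAGa
Chat A_55_P2744601: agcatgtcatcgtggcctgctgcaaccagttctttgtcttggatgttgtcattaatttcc
Searching the probe strand of all 56605 probes with a sequence, 5 (0.00883%) held AAAG at least 4 times in a row, this probe among them. Whether RNA other than Chat binds to the repeat was not tested. The positions are those of the scanner output, and exons of that build were not analysed here.

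No gene of the 8 passed the test of delivery mode. In a limma model of delivery mode and sex, in which the mother was a random effect, 0 of 8 had a Benjamini-Hochberg adjusted p under 0.05 over all genes, where 1.25% of all 36711 genes did (460, with 0.706% higher and 0.548% lower in CSD pups). A gene below this limit is said to be called. At an unadjusted p under 0.05 the count was 0 of 8 as well, against 14.5% of all genes. The log2 fold changes (CSD minus VD, adjusted for sex) lay above 0 in 5 genes and below 0 in 3, against 51.7% of all genes above 0. Their median was 0.03, and their median size was 0.07, against 0.05 for all genes, dim ones among them. In 0 of 8 genes did the values of all CSD pups lie apart from those of all VD pups, which 0.493% of the genes with a value in every pup showed. The 95% intervals of the fold changes reached from 0.713-fold (lower limit of Uchl1) to 1.16-fold (upper limit of Nos1). They hold for the background correction used here, and Uchl1 and Nos1 had larger fold changes under others. They also hold for means over all probes of a gene, and the interval of the Chat probe shown above, taken alone, reached 1.45-fold. That of the Uchl1 probe above background on all arrays reached down to -0.55 on the log2 scale, against -0.49 for the gene. These intervals rest on a litter correlation estimated at 0.015 from 4 litters, an estimate that came out too low in simulated litters of the same sizes. With that correlation set to 0.1, chosen after the data were seen, 0 of 8 genes and 84 of all genes were called.

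**Figure D1:**
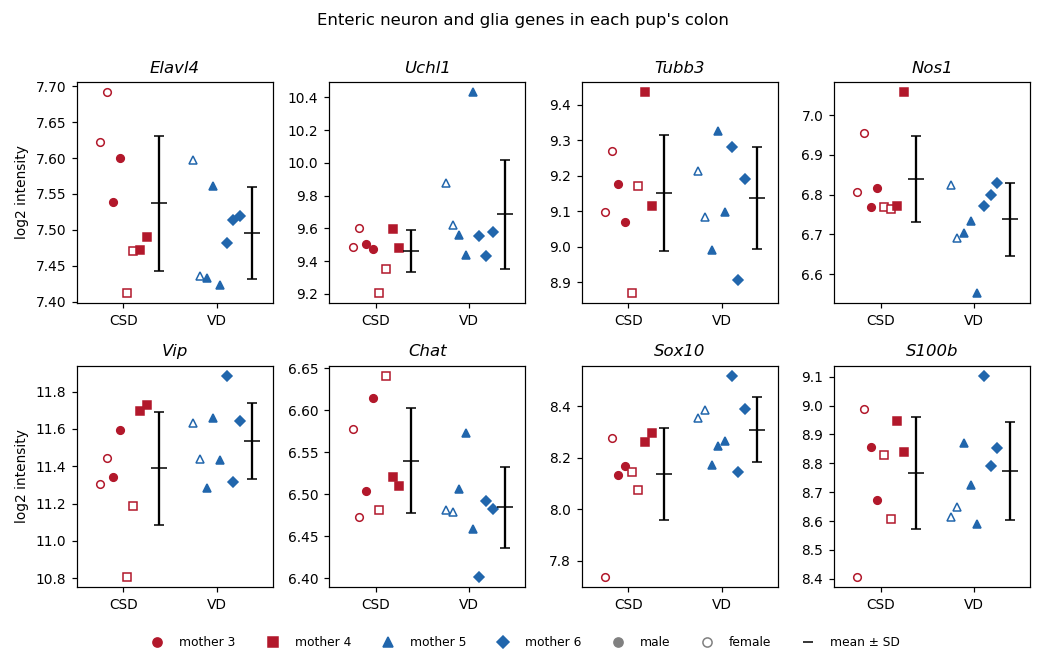
Normalized log2 intensity (vertical axis, a separate scale for each gene) of the 8 enteric neuron and glia genes in the 8 CSD and 8 VD pups, with symbols for the mother, open symbols for females, and the mean ± SD of each group beside the points. The groups overlapped in every panel, with VD pup 11 (10.43) far above the others in Uchl1 and CSD pup 3 (7.74) far below them in Sox10.

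Elavl4 encodes HuD, an RNA-binding protein of differentiated neurons. Its log2 intensity ranged in CSD pups from 7.41 (median 7.51) to 7.69 and in VD pups from 7.42 (median 7.50) to 7.60. Only 3 CSD pups, all of mother 3, lay above every VD pup, and the 4 CSD pups of mother 4 lay among or below the VD pups. Delivery mode made a log2 difference of 0.04 (standard error 0.04, adjusted p = 0.783 with limma), and an exact two-sided permutation test over the 12870 assignments of pups gave p = 0.314. This test, given for each of the 8 genes, takes no account of litter or sex. Elavl4 was the gene of the 8 that differed most clearly between litters of the same delivery mode. The litter of mother 3 had a mean of 7.61 ± 0.06 (SD, n = 4) and that of mother 4 of 7.46 ± 0.03 (SD, n = 4), a difference of 0.15 (standard error 0.05, adjusted p = 0.387 with limma). At an unadjusted p under 0.05 this contrast held 1 of the 8 genes and 7.69% of all genes.

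Uchl1 encodes PGP9.5, a ubiquitin hydrolase that is abundant in neurons and a common stain for enteric ganglia. Its log2 intensity, the mean of 2 probes, lay between 9.20 and 9.60 in CSD pups (median 9.48) and between 9.43 and 10.43 in VD pups (median 9.57). CSD pups 1 and 2 lay below every VD pup and VD pups 4, 5 and 11 above every CSD pup, while the other pups overlapped. At -0.22 (standard error 0.13, adjusted p = 0.474 with limma), its log2 fold change was the largest in size of the 8, and the exact two-sided permutation test gave p = 0.0659. Without VD pup 11 it was -0.13 (adjusted p = 0.478 with limma, and between 0.149 and 0.982 over all 39 alternatives), and without the litter of mother 5 it was -0.008. On the signal corrected by the scanner software it was larger in size. It was -0.38 there when quantile normalized (adjusted p = 0.631 with limma) and -0.36 when scaled per array (adjusted p = 0.609 with limma).
The 2 probes of Uchl1 did not behave alike in VD pup 11. The probe to NM_011670 (chr5:67078408-67078467, plus strand) lay above background on all 16 arrays, where CSD pups had a mean of 12.64 ± 0.28 (SD, n = 8) and VD pups of 12.91 ± 0.25 (SD, n = 8), a log2 difference of -0.27 (adjusted p = 0.368 over all probes with limma). On this probe VD pup 4 was highest (13.40) and VD pup 11 next (13.13). The probe to ENSMUST00000177194 (chr5:67067805-67067864) lay above background in 2 pups only, CSD pup 3 at 6.37 and VD pup 11 at 7.74, and the 15 pups other than VD pup 11 ranged from 6.14 to 6.41. The high Uchl1 value of VD pup 11 therefore came mainly from the dim probe.

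Tubb3 encodes the tubulin chain typical of neurons. Its log2 intensity ranged from 8.87 (median 9.14) to 9.44 in CSD pups and from 8.91 (median 9.14) to 9.33 in VD pups. The lowest and the highest value of all pups were both from CSD pups of mother 4, pups 1 and 6, and the groups overlapped throughout. In the model Tubb3 differed by 0.03 on the log2 scale between CSD and VD pups (standard error 0.08, adjusted p = 0.917 with limma, permutation p = 0.853 by the exact two-sided test).

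**Figure D2:**
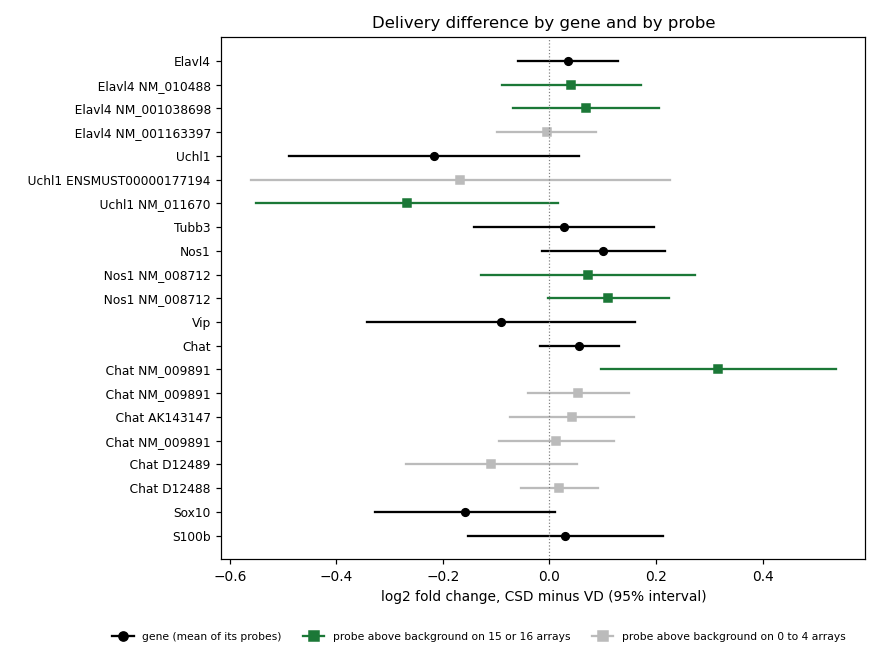
Log2 fold change (CSD minus VD, adjusted for sex, horizontal axis) with its 95% interval for the 8 genes (black circles) and for each probe of the genes with several probes (squares, named by transcript, green where the probe was above background on 15 or 16 arrays and grey where it was on 0 to 4). The intervals of all 8 genes include 0, and of the probes only the Chat probe above background on every array has an interval apart from 0 (0.10 to 0.54).

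Nos1 encodes the neuronal nitric oxide synthase of inhibitory motor neurons. Its log2 intensity lay between 6.76 and 7.06 in CSD pups (median 6.79) and between 6.55 and 6.83 in VD pups (median 6.75). CSD pups 5 and 7 lay above every VD pup and 4 VD pups below every CSD pup. Nos1 differed by 0.10 on the log2 scale between CSD and VD pups (standard error 0.05, adjusted p = 0.421 with limma), with p = 0.0609 in the exact two-sided permutation test.
A spot of one of its 2 probes (chr5:118402831-118402890, plus strand) was marked as an outlier in VD pup 11 and was left out, so that the lowest Nos1 value of the series, 6.55 in that pup, is the value of the other probe alone, which was not well above background there. The log2 fold change of Nos1 was 0.08 without VD pup 11 (adjusted p = 0.515 with limma) and 0.06 without CSD pup 7, the highest of the series (adjusted p = 0.67 with limma). The sequence of the probe with the missing value is shown for this reason, with no part in capitals.
Nos1 A_55_P2133795: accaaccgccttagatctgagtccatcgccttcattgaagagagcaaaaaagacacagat
The log2 fold changes of the 2 probes were 0.07 and 0.11, and in the authors' own gene matrix that of Nos1 was -0.03 (adjusted p = 0.962 with limma, and from 0.153 to 0.962 over all alternatives), so its direction depended on the source of the values.

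Vip encodes vasoactive intestinal peptide, which relaxes smooth muscle and drives secretion. Its log2 intensity ranged in CSD pups from 10.81 (median 11.39) to 11.73 and in VD pups from 11.29 (median 11.54) to 11.89. CSD pups 1 and 2, females of mother 4, lay below every VD pup, and the males of that litter, pups 6 and 7, were the highest of the CSD group. The log2 fold change was -0.09 (standard error 0.12, adjusted p = 0.789 with limma), and the exact two-sided permutation test gave p = 0.275. Leaving out 1 pup or litter moved it to between -0.14 (without CSD pup 7) and -0.02 (without VD pup 4), and it was -0.04 without CSD pup 1.
Vip also had the smallest p of the 8 genes in both comparisons that involve sex. Males and females differed by 0.23 (males higher, standard error 0.12, adjusted p = 0.802 with limma). CSD females had a mean of 11.19 ± 0.27 (SD, n = 4) and CSD males of 11.59 ± 0.18 (SD, n = 4), while VD females had 11.54 ± 0.13 (SD, n = 2) and VD males 11.54 ± 0.23 (SD, n = 6). The delivery difference was 0.40 higher in males than in females (standard error 0.22, adjusted p = 0.981 with limma). In males alone the fold change was 0.05, the opposite sign of that in all pups. Both VD females were of mother 5, so that within the VD group the sexes shared only that litter. Over the 8 genes 0 were called between the sexes, where 0.0599% of all genes were (22), and 0 for the interaction, where 0.00272% were (1).

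Chat, averaged over its 6 probes, had a log2 intensity of 6.47 to 6.64 in CSD pups (median 6.51) and of 6.40 to 6.57 in VD pups (median 6.48). CSD pups 2, 3 and 9 lay above every VD pup and VD pups 6 and 11 below every CSD pup. This gave a log2 difference of 0.06 (standard error 0.03, adjusted p = 0.497 with limma), with an exact two-sided permutation p = 0.0632.
The mean of 6 probes, of which 5 were dim, held little of the signal of the probe that lay above background in every pup. On that probe, whose repeat is shown above, CSD pups ranged from 7.72 (median 7.86) to 8.34 and VD pups from 7.27 (median 7.63) to 7.78. CSD pups 2, 3, 5, 6 and 8 lay above every VD pup, and 5 VD pups lay below every CSD pup. Its log2 fold change was 0.32 (95% interval 0.10 to 0.54), with p = 0.00767 and an adjusted p = 0.134 over all probes with limma, and the exact two-sided permutation test gave p = 0.00249. That test shuffled single pups although delivery mode was shared by whole litters, and it takes no account of litter or sex. The probe thus did not pass the limit that 1.74% of all probes passed, and at an unadjusted p under 0.05 it stood among 15.1% of all probes. This probe was singled out after its values were seen. Of the other 5 probes, the one to D12489 went the other way, at -0.11 (95% interval -0.27 to 0.05), with 1 array above background.
The level on this probe was set beside the colon epithelium list, since cells of the epithelium can hold Chat. Its correlation with the mean of the 12 epithelial genes over the 16 pups was r = 0.67 (permutation p = 0.00437) and rho = 0.63 (permutation p = 0.0102), adjusted to 0.0655 and 0.132 over the 45 relations computed between the genes (this probe included) and 5 marker lists. It was 0.53 within CSD and 0.34 within VD pups, 0.53 and 0.78 on the 2 slides, and 0.50 without CSD pups 2 and 3. The mean of the 6 Chat probes had r = 0.67 (permutation p = 0.00398, adjusted p = 0.0655) and rho = 0.75 (permutation p = 0.00109, adjusted p = 0.049) with the same list, 0.65 within CSD and 0.38 within VD pups, 0.31 and 0.87 on the 2 slides, and 0.46 without CSD pups 2 and 9. The epithelial list lay at 13.86 to 14.30 in CSD pups (median 14.05) and at 13.73 to 14.08 in VD pups (median 13.84). With that list mean as a covariate, a fit chosen after the data were seen, the log2 fold change of the probe was 0.18 in place of 0.32 (adjusted p = 0.545 over all probes with limma), and that of the mean of the 6 probes was 0.01 in place of 0.06 (adjusted p = 0.93 with limma). The list mean itself was 0.20 higher in CSD pups, so this covariate can take up part of any delivery difference. The fit cannot tell an epithelial part of the Chat values from a delivery difference. Over all alternatives for Chat, adjusted p lay between 0.134 and 0.976. The log2 fold change of the mean of the 6 probes was 0.008 on slide 1 alone and 0.10 on slide 2 alone. Tuft cells of the epithelium also express Chat, and 8 of the 11 tuft cell genes measured lay lower in CSD than in VD pups (median log2 fold change -0.07), with 0 called. The Chat probe and the mean of the 6 tuft cell genes above background on every array had r = -0.47 (permutation p = 0.0672, adjusted p = 0.387). Their rho was -0.30 (permutation p = 0.261, adjusted p = 0.557). This r was -0.50 within CSD and -0.38 within VD pups, -0.25 and -0.50 on the 2 slides, and -0.09 without CSD pups 2 and 3. Among the defining tuft cell genes Dclk1 was above background on all arrays and Pou2f3 on 0.

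**Figure D3:**
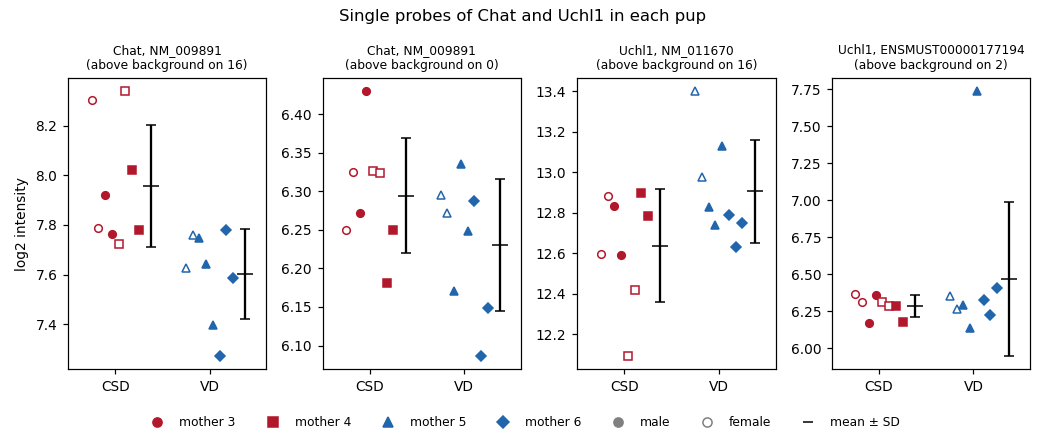
Normalized log2 intensity of 4 single probes in each of the 8 CSD and 8 VD pups (symbols for mothers, open symbols for females, mean ± SD beside the points, a separate scale per panel), headed by the transcript and the number of arrays above background. The first Chat probe lay higher in CSD pups with overlap between the groups, and VD pup 11 at 7.74 stood alone on the dim Uchl1 probe.

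Sox10, a transcription factor of the neural crest that marks enteric glia in the gut wall, was the gene with the smallest adjusted p. Its log2 intensity lay between 7.74 and 8.30 in CSD pups (median 8.16) and between 8.14 and 8.52 in VD pups (median 8.31). CSD pups 2, 3 and 8 lay below every VD pup, and VD pups 4, 5, 6 and 8 above every CSD pup. The group means were 8.14 ± 0.18 (SD, n = 8) and 8.31 ± 0.13 (SD, n = 8), and the log2 fold change was -0.16 (standard error 0.08, adjusted p = 0.381 with limma). The exact two-sided permutation test, which takes no account of litter or sex and is not adjusted over genes, gave p = 0.0322. Both CSD litters, at 8.08 and 8.19, had lower means than both VD litters, at 8.28 and 8.35.
Over the 39 alternatives the log2 fold change ranged from -0.23 (without the litter of mother 4) to -0.07 (males alone). It was -0.20 in the deposited matrix and -0.09 with the pup number as a block. Without CSD pup 3 the log2 fold change was -0.12, and with the mean of the colon epithelium list as a covariate, added after the data were seen, it was -0.10 (adjusted p = 0.751 with limma, and from 0.237 to 0.812 over all 39 alternatives). As for Chat, that list mean itself differed between the groups, and the fit cannot tell its part from a delivery difference.

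S100b encodes a calcium-binding protein of glia. Its log2 intensity ranged from 8.41 (median 8.83) to 8.99 in CSD pups and from 8.59 (median 8.76) to 9.10 in VD pups. CSD pup 3 was the lowest of all pups, as in Sox10, and VD pup 6 the highest, and all others overlapped. S100b differed by 0.03 on the log2 scale between CSD and VD pups (standard error 0.09, adjusted p = 0.913 with limma, exact two-sided permutation p = 0.947), and its sign changed in 5 of 39 alternatives.

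Single pups stood at the ends of the range in several of the genes. CSD pup 1 had the lowest value of the 16 pups in 4 of the 8 genes (Elavl4, Uchl1, Tubb3 and Vip), and CSD pup 3 in 2 (Sox10 and S100b). VD pup 6 had the highest value in 3 (Vip, Sox10 and S100b) and the lowest in Chat. In 6 of the 8 genes the means of both CSD litters were above, or were below, those of both VD litters, against 42% of all genes with a value in every pup. Elavl4 and S100b were the exceptions. Between the litters of mothers 5 and 6, 0 of the 8 genes and 0.874% of all genes were called (321), and Uchl1 had the smallest p, with a difference of 0.30 (mother 5 higher, standard error 0.18, adjusted p = 0.574 with limma). Between those of mothers 3 and 4, 0 of the 8 and 0.0872% of all genes were called (32).

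The genes varied together across pups only in part. Of the 28 pairs of the 8 genes, 19 had a positive Pearson correlation over the 16 pups, and in 0 pairs did the adjusted permutation p of r fall under 0.05. By rho, 3 pairs had an adjusted p under 0.05. The largest r was that of Tubb3 and Vip, with r = 0.69 (permutation p = 0.00348, adjusted p = 0.0974) and rho = 0.70 (permutation p = 0.00342, adjusted p = 0.0479). It was 0.66 in CSD and 0.90 in VD pups, 0.74 and 0.41 on the 2 slides, and 0.52 without CSD pups 1 and 6. The largest rho was that of Vip and Sox10, at 0.72 (permutation p = 0.00234, adjusted p = 0.0479), with r = 0.59 (permutation p = 0.0234, adjusted p = 0.143). Their r was 0.39 in CSD and 0.82 in VD pups, 0.34 and 0.83 on the 2 slides, and 0.59 without CSD pup 1 and VD pup 6. Elavl4 and Nos1 had a rho of 0.67 (permutation p = 0.00535, adjusted p = 0.0499) and an r of 0.51 (permutation p = 0.0434, adjusted p = 0.203), which was 0.30 in CSD and 0.73 in VD pups, 0.16 and 0.84 on the 2 slides, and 0.38 without CSD pups 3 and 5. Without VD pup 11, whose Nos1 value came from a probe not well above background, the r of this pair was 0.43 and its rho 0.62 over 15 pups. The 2 glial genes Sox10 and S100b had r = 0.60 (permutation p = 0.0145, adjusted p = 0.135) and rho = 0.36 (permutation p = 0.176, adjusted p = 0.399). It was 0.89 in CSD and 0.36 in VD pups, and 0.62 on both slides. Without CSD pup 3 and VD pup 6 their r was -0.0055, so the relation rested on those pups. Chat and Sox10 had r = -0.63 (permutation p = 0.00939, adjusted p = 0.131) and rho = -0.63 (permutation p = 0.0109, adjusted p = 0.0684), neither under 0.05 when adjusted. Their r was -0.45 in CSD and -0.63 in VD pups, -0.56 and -0.90 on the 2 slides, and -0.70 without CSD pups 2 and 9. Chat here is the mean of its 6 probes, most of them dim.

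**Figure D4:**
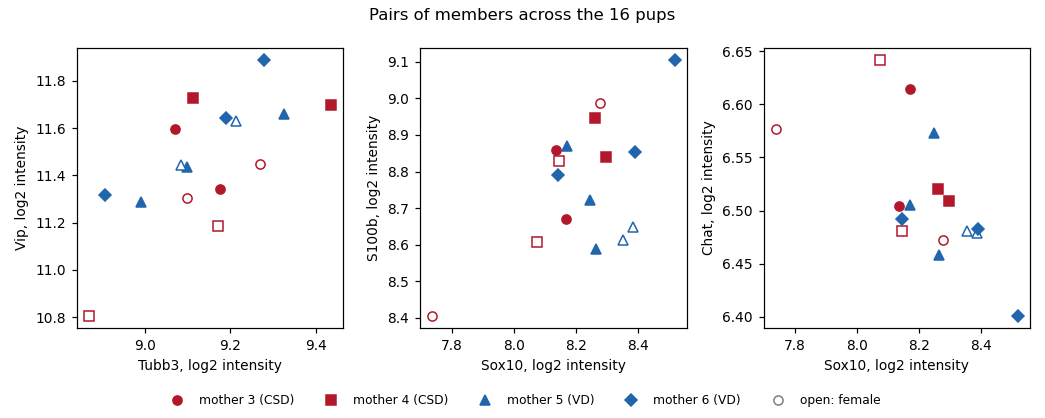
Normalized log2 intensity of Vip against Tubb3, of S100b against Sox10, and of Chat against Sox10 in the 16 pups, with red symbols for CSD and blue for VD pups, shapes for mothers and open symbols for females. CSD pup 1 was lowest in both Vip and Tubb3 (r = 0.69), and CSD pup 3 and VD pup 6 were the lowest and highest pups of both glial genes.

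Vip was set beside a list of adipocyte genes, since fat lies along the outside of the colon wall. Its correlation with the mean of the 8 adipocyte genes was r = 0.74 (permutation p = 0.00143, adjusted p = 0.0643) and rho = 0.63 (permutation p = 0.0117, adjusted p = 0.132), 0.85 in CSD and 0.43 in VD pups, 0.83 and 0.49 on the 2 slides, and 0.39 without CSD pup 1 and VD pup 6. CSD pup 1 had the lowest mean of this list (8.01) and the lowest Vip, and VD pup 6 the highest mean (11.43) and the highest Vip. All 8 adipocyte genes lay above background on every array, and all 8 were lower in CSD pups (median log2 fold change -0.24), with 0 called. The part of this list in the values of Vip was not tested. Vip and the mean of the 6 tuft cell genes above background on every array had r = 0.63 (permutation p = 0.0101, adjusted p = 0.113) and rho = 0.68 (permutation p = 0.00511, adjusted p = 0.115). Neither adjusted p was under 0.05. Their r was 0.52 in CSD and 0.82 in VD pups, 0.39 and 0.80 on the 2 slides, and 0.64 without CSD pup 1 and VD pup 6. Sox10 and the adipocyte list had r = 0.61 (permutation p = 0.0154, adjusted p = 0.138) and rho = 0.58 (permutation p = 0.0192, adjusted p = 0.173), 0.59 in CSD and 0.57 in VD pups, 0.61 and 0.48 on the 2 slides, and 0.38 without CSD pup 3 and VD pup 6.

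Beyond the 8 genes, the wider set of neuron and glia genes gave few calls. In 6 lists of 137 genes for neurons, their transmitters, their lineage and glia, 4 genes (2.92%) were called, 3 lower and 1 higher in CSD pups, beside the 1.25% of all genes. At an unadjusted p under 0.05 there were 19 (13.9%, against 14.5% of all genes), 70 of the 137 lay above 0 and 67 below, and the median log2 fold change was 0.0049. These lists were described by their counts and were not tested as sets. The pan-neuronal list (30 genes) had a median of 0.02, and in CSD pups 19 of its genes lay higher and 11 lower. Of its members that were not called, the smallest p were those of the synaptic vesicle genes Syp (-0.16, adjusted p = 0.0943 with limma), Syn2 (-0.35, adjusted p = 0.181 with limma) and Syt1 (0.29, adjusted p = 0.187 with limma). Snap25 was at 0.03, Prph at 0.09, Stmn2 at -0.09 and Gap43 at 0.34 (adjusted p = 0.549 with limma).

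Vamp2, which encodes a membrane fusion protein of synaptic vesicles, was the clearest of the called genes. It lay between 10.64 and 10.87 in CSD pups (median 10.79) and between 10.90 and 11.20 in VD pups (median 11.09), so the groups did not overlap. Its log2 fold change came to -0.29 (standard error 0.05, adjusted p = 0.0116 with limma). Gdnf, the ligand that draws neural crest cells into the gut through the receptor Ret, lay between 7.07 and 7.38 in CSD pups (median 7.22) and between 7.37 and 7.63 in VD pups (median 7.45). Only CSD pup 5 reached into the VD range, and the log2 fold change was -0.25 (standard error 0.05, adjusted p = 0.0306 with limma). This is the mean of 2 probes, and the brighter probe alone gave -0.49 (adjusted p = 0.0186 with limma) and the deposited matrix -0.55 (adjusted p = 0.0291 with limma). Its receptor genes were not called, with Ret at 0.09 and Gfra1 at -0.02. Artn, a ligand of the same family that acts through Gfra3 and stood in the glia list, lay between 7.92 and 8.36 in CSD pups (median 8.17) and between 8.28 and 8.59 in VD pups (median 8.50). Its log2 fold change was -0.32 (standard error 0.07, adjusted p = 0.0298 with limma), and 6 CSD pups lay below every VD pup. Gfra3 was at -0.31 (adjusted p = 0.586 with limma). Slc18a2, which loads amines into vesicles, was the gene that rose, from 7.74 to 7.96 in VD pups (median 7.87) to 7.91 to 8.16 in CSD pups (median 8.06), a log2 difference of 0.21 (standard error 0.04, adjusted p = 0.0382 with limma). Gdnf and Artn encode secreted ligands and are not themselves markers of neurons or glia.
These calls depended on the model. With the litter correlation set to 0.1, Vamp2 was called (adjusted p = 0.0415 with limma), while Gdnf (0.084), Artn (0.0967) and Slc18a2 (0.118) were not. Over 39 alternatives Vamp2 was called in 32, Gdnf in 23, Artn in 23 and Slc18a2 in 14, and their adjusted p reached up to 0.479, 0.487, 0.585 and 0.542. Leaving out any 1 pup ended no call of Vamp2, and leaving out the litter of mother 4 did (adjusted p = 0.0919 with limma). The call of Gdnf ended without CSD pup 6, 7 or 9, without VD pup 4 (adjusted p from 0.0504 to 0.0717), and without the litter of mother 4 or 5 (0.18 and 0.252). That of Artn ended without CSD pup 6 or 9, without VD pup 4 or 5 (adjusted p from 0.0551 to 0.0879), and without the litter of mother 3, 4 or 5 (from 0.07 to 0.156). That of Slc18a2 ended without CSD pup 2, 3, 5, 6, 7 or 8, without VD pup 4, 5 or 11 (adjusted p from 0.0512 to 0.107), and without the litter of mother 4 or 5 (0.141 and 0.249).

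**Figure D5:**
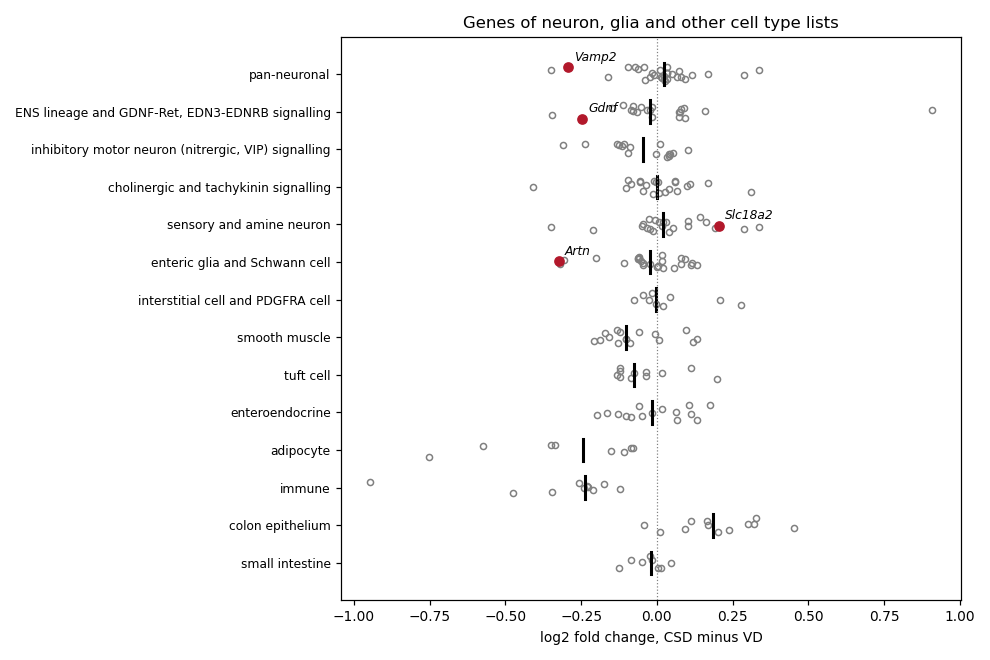
Log2 fold change (CSD minus VD, adjusted for sex, horizontal axis) of every gene of 6 neuron and glia lists and 8 lists of other cell types (circles), with the median of each list (black bar) and called genes in red with their names. The medians of the neuron and glia lists lie between -0.04 and 0.02, those of the adipocyte and immune lists at -0.24 and that of colon epithelium at 0.18.

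The lists for the transmitters and glia held no more calls. Of the 16 genes of nitrergic and peptide signalling 7 were higher and 9 lower, 0 were called, and the 2 subunits of the nitric oxide receptor of smooth muscle, Gucy1b3 (-0.24, adjusted p = 0.136 with limma) and Gucy1a3 (-0.11, adjusted p = 0.324), had the smallest p. The cholinergic and tachykinin list (22 genes) had 11 higher and 11 lower and 0 called. Its smallest p were those of Bche and Colq, which break down acetylcholine and anchor the enzyme that does so, at 0.31 (adjusted p = 0.0985 with limma) and -0.41 (adjusted p = 0.157 with limma). With 1 pup or litter left out, Bche lay between 0.13 and 0.40 and Colq between -0.52 and -0.19. The transporters that go with Chat in neurons, Slc18a3 and Slc5a7, were at -0.04 and 0.06. In the glia and Schwann cell list (25 genes) 11 were higher and 14 lower, with Gfap at -0.06 and Erbb3 at 0.09.

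Of the lists for other cells of the gut wall, several had medians farther from 0, with 0 genes called. Of the smooth muscle genes 12 of 16 were lower in CSD pups (median -0.10, 0 called), with Smtn and Tpm2 at -0.19 and -0.21. Of the interstitial cell genes 4 of 9 were higher and 5 lower, with Kit at -0.02, Ano1 at 0.04 and 0 called. The smallest p of that list were those of Kitl (0.28) and Thbs4 (0.21). Leaving out 1 pup or litter moved Kitl to between 0.096 and 0.38, and Thbs4 to between -0.037 and 0.31. All 10 immune genes were lower (median -0.24, 0 called), with Cd79a at -0.48 and Itgax at -0.23. At an unadjusted p under 0.05 there were 4 (40%, against 14.5% of all genes), and in 1 of the 10, Itgax, the groups did not overlap, as in 0.493% of the genes with a value in every pup. By contrast 11 of 12 colon epithelium genes were higher (median 0.18, 0 called), with Slc26a3 at 0.45 and Epcam at 0.17. Of the enteroendocrine genes, whose cells share vesicle genes with neurons, 7 of 15 were higher and 8 lower (median -0.02, 0 called, Pax6 at 0.07 and Fev at -0.10). The smallest p of the other lists were those of Ptgs1 (0.20) and Il17rb (-0.12) for tuft cells, Lep (-0.08) and Cfd (-0.75) for adipocytes, and Apoc3 (-0.13) and Apoa4 for small intestine, of which Apoa4 was above background on 0 arrays and is given no fold change. Their part in the values of the neuron and glia genes was not tested beyond the covariates named above. Such a fit cannot settle it for a list whose mean itself differs between the groups.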

How the data were processed

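Colon RNA of 8 CSD and 8 VD pups was measured on 16 arrays of 1 colour. Group, mother, sex and pup number came from the labels. The authors deposited the scanner output, with a mean intensity and a median local background per spot, and a matrix of 27036 genes of log2 values that the authors made with limma 3.38 (per the labels) after correcting, quantile normalizing and filtering the probes and taking means per gene. The matrix holds all 8 genes, and over 26900 shared genes it correlated at 0.977 with the values computed here on every array. It served as an alternative.

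From the scanner output, normexp correction (offset 50) was applied to 62976 spots per array with limma 3.58.1 in R 4.3.3. Left out were control spots and the 65 to 205 spots of an array that the scanner software flagged. Log2 values of the 59305 other spots were quantile normalized. After averaging the spots of each probe, those exceeding the array's 5% quantile on 4 or more arrays stayed in (56366 of 56605, with all 17 probes of the 8 genes among them), and probes of the same gene name were averaged. This gave 36711 genes, of which 218 had a missing value.

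Each gene was fitted with lmFit and eBayes on delivery mode and sex, and duplicateCorrelation modelled the pups of a mother as correlated (consensus 0.015). The same tool gave the comparisons of sexes, of litters and the interaction. The limit for a call was an adjusted p (Benjamini-Hochberg, over all genes) under 0.05. On simulated data with these litters the model was tested. It recovered most of the changes put in, which were larger than those of the 8 genes, but it called more unchanged genes than its limit allows. In further simulated litters with no gene changed, the litter correlation was estimated too low. More genes there had an unadjusted p under 0.05 with the estimated than with the true correlation. Whether this gave the extra calls of the first simulation was not tested. Calls of single genes have to be read with this. Permutation tests of a group difference were exact and two-sided, shuffled single pups and took no account of litter or sex. Those of correlations used 100000 resamples. Pups and their litters are the replicates, and probes or spots are not. The p-values of the model set a difference against the spread between pups, with the mother as a random effect.

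Named were the 8 genes in full, from each list its called genes or, with none called, the 2 of smallest p, and the 5 genes with the pattern most like the 8. Other genes named are well-known members of their list, chosen after their values were seen. The 8 genes and the lists were chosen with earlier results of these data known. Of the 227 list genes, 226 were found by the array's names, and all 8 genes matched RefSeq names of GRCm38.p6, which gave no coordinates. The scanner output also gave the probe positions (mm9). Alternatives covered the correction, the filter, the probe used, the deposited matrix, the terms of the model, the slides, males alone, a block for the pup number, marker list means as covariates, and leaving out each pup or litter.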

Additional observations from a re-analysis of the deposited data

Results flagged for a closer look

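A total of 75 sets of 8 pups (each a value in 1 delivery mode) were checked for a single pup far from the rest with Dixon's test, 27 of the 8 genes, their bright probes and 2 list means, and 48 of the list genes named by the rule. The test singled out 4 of them, and chance does so in about 1 in 20 sets. The log2 intensity of Uchl1 in VD pup 11 was 10.43, where the median of the other VD pups was 9.56, and this value stood apart on the dim probe and not on the bright one. The value of Sox10 in CSD pup 3 was 7.737, where the median of the other CSD pups was 8.17, and the same pup was the lowest in S100b. VD pup 11 was also far above the other VD pups in Itgax, a gene of dendritic cells (7.944, median of the others 7.41), and in Apoc3, an apolipoprotein gene of the small intestine list (6.851, median of the others 6.56). Without this pup the log2 fold change (CSD minus VD) was -0.18 in place of -0.23 for Itgax and -0.09 in place of -0.13 for Apoc3. The adjusted p of Itgax was smaller without this pup, at 0.0582 in place of 0.149 with limma, and that of Apoc3 was 0.287 in place of 0.3. This pup had the lowest share of spots well above background (58.7%), whose part in these values was not tested.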

How the results depend on the processing

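Under all 39 alternatives, 0 of the 8 genes were called between CSD and VD pups, and the counts between the sexes, for the interaction and between litters stayed at 0 under those that could be fitted. The number of all genes called, 460 here, ranged from 0 to 2265, the latter without the litter of mother 6. It was 0 with litter means as samples, in males alone and on slide 2, 138 without the litter of mother 4, and 84 with the litter correlation set to 0.1. Leaving out 1 pup gave from 145 (without VD pup 4) to 617 (without VD pup 7). The litter correlation setting, the colon epithelium covariate, the fits over probes for Chat and the correlation of Elavl4 and Nos1 without VD pup 11 were chosen after seeing the data.
Some list genes that were not called here were called under alternatives. Of the 39, Bche and Cd79a were called in 4 each and Itgax and Slc26a3 in 2 each. Colq, Kitl, Thbs4 and Il17rb were called in 1 each. The log2 fold change (CSD minus VD) changed sign in 15 cases, all in genes that were not called in the main fit. Elavl4 was at -0.034 without the litter of mother 3, Tubb3 at -0.0042 without VD pup 7 and -0.026 without CSD pup 6, and Nos1 at -0.033 in the deposited matrix. Vip was at 0.053 in males alone. S100b was at -0.0062 without sex in the model, -0.035 with litter means, -0.0037 without CSD pup 5, and -0.0078 and -0.087 when the litters of mothers 4 and 5 were left out. Without the litter of mother 5, Thbs4 (of the interstitial cell list) was at -0.037 and Cfd (adipocyte) at 0.17, and Cfd was at 0.305 in males alone. Over all fits that left out a pup or a litter, the range was -0.034 to 0.10 in Elavl4, -0.026 to 0.074 in Tubb3, -0.087 to 0.0901 in S100b, -0.037 to 0.31 in Thbs4 and -1.14 to 0.17 in Cfd. The causes were not tested.
The 5 pup numbers that both groups share do not pair the pups. The deviations of same-numbered pups from their group means correlated between -0.05 and 0.22, and 2 of 5 numbers were each other's best match. With that number as a block, 0 of 8 genes and 0 of all genes were called, Vip was at 0.048 and Cfd at 0.023, and sex could not be fitted beside it.
Sample number and litters limit what could be seen, and for Chat and Gdnf the mean over probes differed less between the groups than the brightest probe (0.32 and -0.49).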

Other observations

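The 5 genes whose values over the 16 pups were most like the mean standardized profile of the 8 genes, among 20539 candidates well above background on all arrays, were Rab6b (r = 0.89), Tlx2 (r = 0.88), Colec11 (r = 0.88), Vat1l (r = 0.87) and Gm5868 (r = 0.86). Within delivery modes the r of these genes lay between 0.87 and 0.90. These are descriptions of the same 16 libraries, without a test, and 3.61% of the candidates had an r above 0.5. Tlx2 encodes a homeobox protein of neural crest derivatives, and CSD pups had a log2 intensity of 8.31 ± 0.27 (SD, n = 8), against 8.23 ± 0.16 (SD, n = 8) for VD. Rab6b, a small GTPase of neurons, was at 7.75 ± 0.15 (SD, n = 8) and 7.71 ± 0.08 (SD, n = 8).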
